A study of Mus musculus with 6 samples.

Results

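The genes examined were 10 enzymes and binding proteins of DNA methylation: *Dnmt1*, *Dnmt3a*, *Dnmt3b*, *Uhrf1*, *Tet1*, *Tet2*, *Tet3*, *Tdg*, *Mbd1* and *Mbd2*. They were chosen by name, for their function, from the 25043 genes to which the transcripts of the deposited table could be assigned, and all 10 had reads. The RNA came from primary mouse embryonic fibroblasts (MEFs), 3 libraries of WT and 3 of *Anp32e* null genotype, from cells at a passage below 8 grown in medium with serum. ANP32E is a chaperone that removes the histone variant H2A.Z from chromatin. The study describes its 3 replicates of cell culture experiments as biological, and how many embryos the cells came from is not given in the sources used here. The value used for each transcript was its normalized count averaged by the authors over all 6 libraries, where a size factor per library corrects for depth. This mean pools both genotypes. It answers how strongly each gene was expressed in these MEFs, and a comparison of the genotypes was not made here.

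A methyl group on the cytosine of a CpG dinucleotide is set by DNA methyltransferases. DNMT3A and DNMT3B methylate unmodified DNA, and DNMT1 copies the mark to the new strand after replication, guided by UHRF1, which binds hemimethylated CpGs. TET dioxygenases oxidize 5-methylcytosine, and thymine DNA glycosylase (TDG) cuts out some of the oxidized bases for repair. Proteins with a methyl-CpG binding domain, such as MBD1 and MBD2, bind the methylated DNA and recruit repressors. H2A.Z and DNA methylation are known to occupy largely separate regions of the genome, which makes these enzymes of interest in MEFs that lack an H2A.Z chaperone.

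*Dnmt1* and *Dnmt3a* both have transcripts that begin at different starts, with separate values in the table, and their promoter sequences are shown. *Uhrf1* also has such transcripts, and its sequences are not shown. The sequences shown are RefSeq windows around a transcript start on GRCm38.p6, read 5′ to 3′ along the gene, with each CpG in capitals.

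Dnmt1 upstream start, chr9:20959839-20960138, minus strand: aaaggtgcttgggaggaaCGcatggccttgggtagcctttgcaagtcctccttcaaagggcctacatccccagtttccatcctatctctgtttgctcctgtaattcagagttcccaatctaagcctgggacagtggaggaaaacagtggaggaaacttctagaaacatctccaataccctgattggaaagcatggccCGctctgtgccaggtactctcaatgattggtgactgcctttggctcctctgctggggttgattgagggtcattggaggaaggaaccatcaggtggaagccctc

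Dnmt1 middle start, chr9:20952930-20953229, minus strand: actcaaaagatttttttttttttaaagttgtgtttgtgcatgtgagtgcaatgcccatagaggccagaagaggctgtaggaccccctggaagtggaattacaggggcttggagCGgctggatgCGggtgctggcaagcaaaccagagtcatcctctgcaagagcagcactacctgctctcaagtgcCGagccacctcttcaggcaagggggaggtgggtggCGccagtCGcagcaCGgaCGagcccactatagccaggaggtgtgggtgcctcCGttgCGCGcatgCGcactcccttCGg

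Dnmt1 downstream start, chr9:20952574-20952873, minus strand: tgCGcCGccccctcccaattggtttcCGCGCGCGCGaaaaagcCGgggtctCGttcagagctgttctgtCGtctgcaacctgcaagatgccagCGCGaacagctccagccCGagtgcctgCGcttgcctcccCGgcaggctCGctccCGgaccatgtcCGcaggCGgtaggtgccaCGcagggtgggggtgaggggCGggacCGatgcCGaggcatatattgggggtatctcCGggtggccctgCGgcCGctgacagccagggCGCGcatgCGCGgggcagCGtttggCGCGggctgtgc

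Dnmt3a start of NM_001271753, chr12:3806910-3807209, plus strand: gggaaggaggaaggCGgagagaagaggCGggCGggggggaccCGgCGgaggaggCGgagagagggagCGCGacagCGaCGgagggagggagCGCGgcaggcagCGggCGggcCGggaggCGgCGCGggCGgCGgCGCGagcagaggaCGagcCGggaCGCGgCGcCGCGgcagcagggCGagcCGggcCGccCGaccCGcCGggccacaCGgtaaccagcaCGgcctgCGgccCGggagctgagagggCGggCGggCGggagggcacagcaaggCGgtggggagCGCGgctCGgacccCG

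Dnmt3a start of NM_153743, chr12:3891494-3891793, plus strand: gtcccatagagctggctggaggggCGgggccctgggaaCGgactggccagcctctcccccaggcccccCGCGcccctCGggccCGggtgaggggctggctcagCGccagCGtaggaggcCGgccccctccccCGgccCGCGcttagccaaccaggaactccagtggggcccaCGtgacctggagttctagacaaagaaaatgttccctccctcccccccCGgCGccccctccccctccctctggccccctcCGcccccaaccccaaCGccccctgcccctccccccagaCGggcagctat

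The starts of a gene differed in CpG content. The upstream window of *Dnmt1* held 2 CpGs, the middle one 12 and the downstream one 33. For *Dnmt3a*, the window at the start of NM_001271753 held 47 CpGs and that at the internal start of NM_153743 held 18. Another window of *Dnmt3a*, chr12:3806730-3807029, lies just upstream, overlaps the first of these and held 46. The median over all 32851 RefSeq windows of this length was 7 CpGs, and 94.6% of the windows held at least 1. Windows were found for 8 of the 10 genes, without *Mbd1* and *Mbd2*, and 12 of their 13 windows held more CpGs than the median window. *Tet2* had the highest content, with 57 CpGs, at percentile 99.9 of all windows. *Uhrf1* had windows with 12 and 33 CpGs, *Dnmt3b* 30, *Tdg* 26, *Tet3* 22 and *Tet1* 17. Only the upstream start of *Dnmt1* lay below the median window, at percentile 18.7. A count of CpGs says nothing of their methylation, which was not measured in these libraries.

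**Figure D1:**
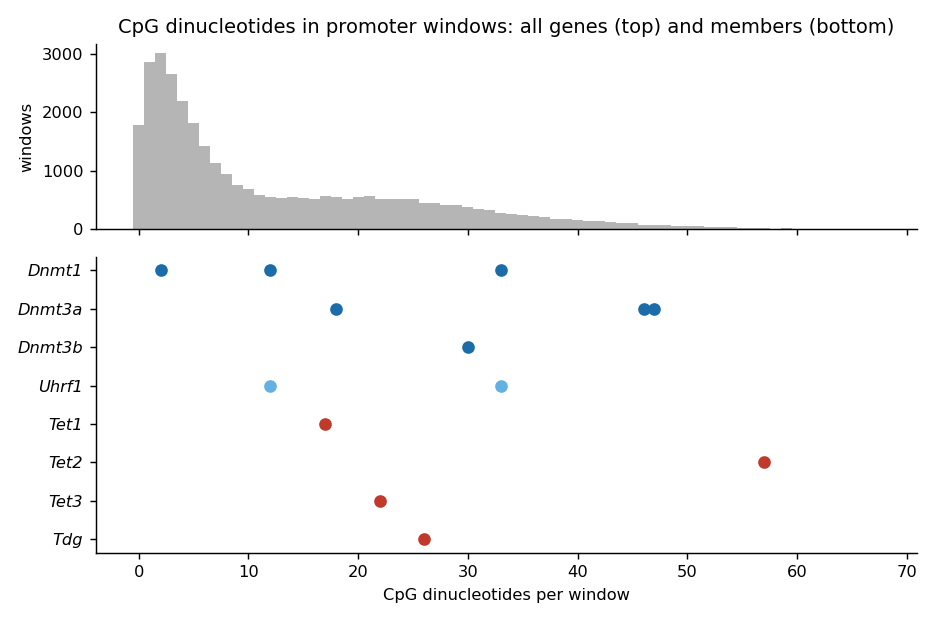
CpG dinucleotides per RefSeq promoter window, as the number of windows over all genes (top, grey bars) and for each window of the 8 genes with one (bottom, points). The windows of *Dnmt1* spread from 2 to 33 CpGs, and *Tet2* reached 57.

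Expression differed widely between the 10 genes. Mean normalized counts of the transcript with the highest mean ran from 28.8 for *Tet1* to 21312 for *Dnmt1*. Since a longer transcript collects more reads, levels were compared per kb of spliced length. On that scale the genes spanned 2.01 counts per kb for *Tet1* to 3923 for *Uhrf1*, and 6 of the 10 lay above the median gene with reads, at 146 counts per kb. The lengths are those of matched GENCODE models, whose untranslated ends need not be the ones the authors counted on, and no spread between replicates can be given for a pooled mean. Small differences between neighbours in the order are therefore not resolved. Of these 6, *Dnmt3a* and *Tdg* lay closest to the median gene, and when genes whose mean was under 10 normalized counts were left out, both fell below it and 4 of the 10 lay above.

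**Figure D2:**
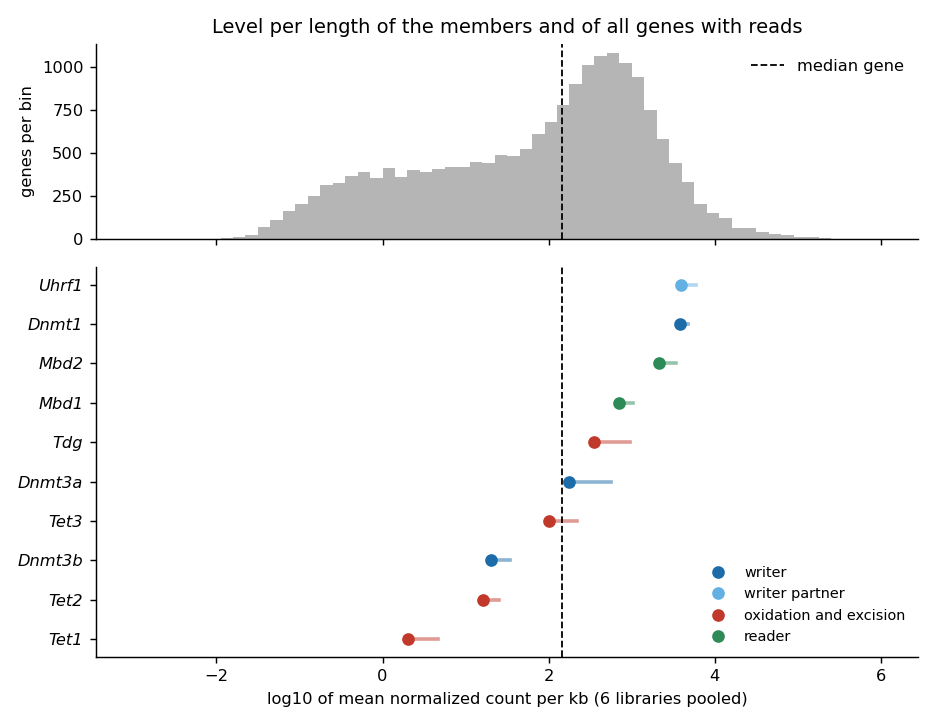
Mean normalized count per kb of spliced length on a log10 axis, for all genes with reads (top, histogram) and for the 10 genes (bottom, points). Each line spans the values obtained with another transcript or with coding length, and the dashed line marks the median gene. *Uhrf1* and *Dnmt1* lie together at the top and *Tet1* lies apart at the bottom.

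The maintenance pair was expressed at the highest level of the 10 genes. The gene of *Dnmt1* spans chr9:20907206-20959888 of GRCm38 on the minus strand, with 39 exons in its model. Its level was 3845 counts per kb, at percentile 94.1 of the 18732 genes with reads and a matched model. *Uhrf1* spans chr17:56303337-56323486 on the plus strand, with 17 exons. It had a mean of 13663 normalized counts and a level of 3923 counts per kb, at percentile 94.3. The ratio of *Dnmt1* to *Uhrf1* per kb was 0.98, and it ranged from 0.804 to 1.01 over the other transcripts and the coding length, so neither could be placed first.

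The enzymes of new methylation were expressed less. *Dnmt3a*, on chromosome 12 from 3801559 to 3914443 of the plus strand, had a mean of 1535 normalized counts and a level of 176 counts per kb, close to the median gene at percentile 52.5. *Dnmt3b*, on chromosome 2 from 153649411 to 153687730 of the plus strand, had a mean of 87.8 normalized counts and a level of 20.3 counts per kb, at percentile 32.8. Per kb, *Dnmt1* stood 21.9-fold above *Dnmt3a* and 189-fold above *Dnmt3b*. *Dnmt3a* stood 8.65-fold above *Dnmt3b*. With coding length in place of spliced length, which matters for the long untranslated end of *Dnmt3a*, *Dnmt1* stood 8.39-fold above it, and *Dnmt3a* 16.6-fold above *Dnmt3b*. The order of the 3 genes was the same under every choice of length. Of the summed level per kb of the 3 methyltransferases, *Dnmt1* made up 95.1%, *Dnmt3a* 4.35% and *Dnmt3b* 0.503%. With coding length these shares were 88.8%, 10.6% and 0.639%.

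The TET dioxygenases were led by *Tet3*. It lies on chromosome 6 from 83362373 to 83457208 on the minus strand, and its transcript with the highest mean, NM_001347313, had 1168 normalized counts. No exon model was matched to that transcript. Its other transcript, NM_183138, had 1088 normalized counts and gave a level of 99.8 counts per kb, at percentile 45.9. *Tet2*, on chromosome 3 from 133463677 to 133545136 of the minus strand, had a mean of 147 normalized counts and a level of 16.3 counts per kb. *Tet1*, on chromosome 10 from 62804570 to 62887469 of the minus strand, had a level of 2.01 counts per kb, at percentile 18. The matched model of *Tet1* begins outside these RefSeq bounds, at 62899118, so its length of 14369 bases may not be that of the transcript counted. *Tet3* was 6.12-fold above *Tet2* and 49.8-fold above *Tet1* per kb, or 8.51-fold and 46.2-fold with coding length. It made up 84.5% of the summed level of the 3 *Tet* genes, *Tet2* 13.8% and *Tet1* 1.70%.

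*Tdg*, which acts on some of the oxidized bases that TET enzymes make, was above the *Tet* genes in level. It lies on chromosome 10 from 82629814 to 82650799 on the plus strand and had a mean of 1214 normalized counts. Its 347 counts per kb placed it at percentile 62.5 and 3.47-fold above *Tet3*. Of its 3502 exonic bases, 367 lie under exons of *Glt8d2* on the opposite strand. The stated default settings of counting ignore strand, but whether all settings were default is not known. If strand was ignored, reads of *Glt8d2* may be part of the value of *Tdg*. No exonic base of the models that stand for the other 9 genes is shared with an exon of another gene. The models of other transcripts were not checked for this.

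Both methyl-CpG binding proteins lay above the median gene. *Mbd2*, on chromosome 18 from 70568225 to 70629134 of the plus strand, had a mean of 4187 normalized counts and a level of 2144 counts per kb, at percentile 89.6. *Mbd1*, on chromosome 18 from 74267605 to 74282737 of the plus strand, had a mean of 1986 normalized counts and a level of 698 counts per kb, at percentile 74.1. *Mbd2* was 3.07-fold above *Mbd1* per kb and 3.29-fold with coding length.

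The table lists 35 transcripts of the 10 genes, and most transcripts of a gene had nearly the same mean. Reads in exons that transcripts share appear to be counted for each of them, so their means overlap and were not added up. The 5 transcripts of *Dnmt1* lay between 21229 and 21312 normalized counts. The lowest, NM_001199432, is the one whose model begins at the upstream start with 2 CpGs, and it had 83.4 counts fewer than NM_001199433, whose model begins near the downstream start. The 3 transcripts that begin at the middle start had 21287 or 21288 normalized counts. *Uhrf1* showed the same kind of split, since NM_010931 and NM_001111079 both had 13663 normalized counts and the other 2 transcripts, with models that begin farther downstream, both had 13593.

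*Dnmt3a* and *Mbd2* were the genes whose transcripts differed most. NM_153743, the *Dnmt3a* transcript that begins at the internal start, had 1202 normalized counts, which is 78.3% of the 1535 counts of NM_001271753. The 333 counts by which they differ are reads that only the longer transcript holds, less any that only the shorter one holds, and the table does not say where in the gene they lie. NM_007872, with 23 exons like NM_001271753, differed from it by 0.719 counts. For *Mbd2*, the transcript with 3 exons, NM_001311071, had 1178 normalized counts, 28.1% of the 4187 counts of NM_010773 with 7 exons. The transcripts of *Mbd1* ran from 1919 to 1986 normalized counts, those of *Tet2* differed by 0.487 and those of *Tdg* by at most 1.01. *Tet1* has 1 transcript in the table.

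**Figure D3:**
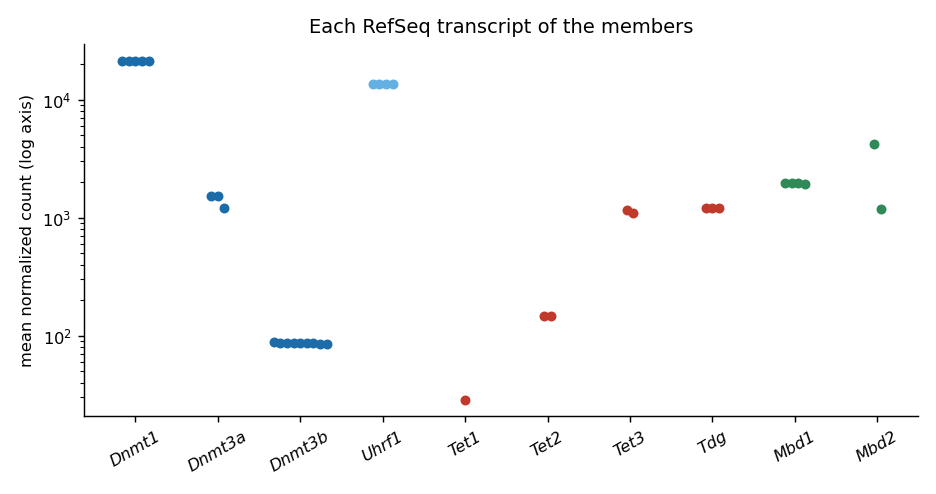
Mean normalized count over the 6 libraries, on a log axis, of each RefSeq transcript of the 10 genes (points). Transcripts of a gene lie almost level except in *Dnmt3a*, with 78.3% in the shortest, and *Mbd2*, with 28.1%.

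For the lowest means, the whole reads of the single libraries could be worked out. A mean is the sum of 6 whole read numbers, each times the fixed step that 1 read makes in its library, and the steps were read from the lowest means in the table. They correspond to size factors of 1.13, 1.05, 1.03, 0.987, 0.936 and 0.909. For *Tet1* and *Dnmt3b* a single set of 6 read numbers gave the listed mean, and for *Dnmt3b* this holds if no library held over 50% of the sum. The mean alone does not tell which of the libraries are WT and which are *Anp32e* null, so these are 6 values without a group.

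*Tet1* had 177 reads in the 6 libraries together (exact Poisson 95% interval 152 to 205, which covers counting error only). In the order of falling size factor, the libraries had 42, 46, 27, 19, 27 and 16 reads. Divided by the size factors, these are 37.1, 43.7, 26.3, 19.2, 28.9 and 17.6 normalized counts. The highest library stood 2.49-fold above the lowest. The interval of the highest, 32.0 to 58.4 normalized counts, lay above that of the lowest, 10.1 to 28.6, and that of the library with 19.2 counts, 11.6 to 30.1. These intervals take each counted read as independent. Sequencing was paired-end, and whether both mates of a fragment were counted is not stated. If they were, the intervals are too narrow and may overlap.

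*Dnmt3b* was more even between libraries. It had 529 reads in all (exact Poisson 95% interval 485 to 576), with 89, 89, 101, 83, 95 and 72 in the libraries in the same order. Their normalized counts were 78.7, 84.6, 98.3, 84.1, 102 and 79.2, and the highest was 1.29-fold the lowest. The 95% intervals of all 6 libraries overlapped. *Dnmt3b* is known for alternative exons that alter or abolish its catalytic activity. Its 9 transcripts differed by few reads. NM_001003963, whose model lacks 2 of the 24 exons of NM_001003961, had 528 reads against 529. NM_001271747, with 20 exons, had the fewest, 515. A read that also touches a shared exon counts for both transcripts, so these differences do not give the share of RNA that skips an exon.

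**Figure D4:**
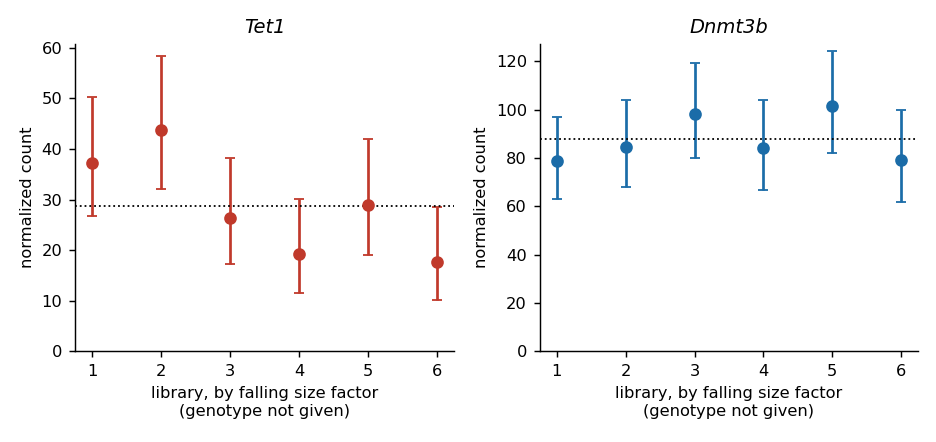
Normalized counts of *Tet1* (left) and *Dnmt3b* (right) in each of the 6 libraries, ordered by falling size factor and without their genotype. Bars are exact Poisson 95% intervals, for counting error only, and the dotted line is the authors' mean. *Tet1* ranges from 17.6 to 43.7 and *Dnmt3b* from 78.7 to 102.

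Other genes that act with these enzymes were examined by role. Of 9 writers and partners, 6 lay above the median gene per kb. *Pcna*, the replication clamp that DNMT1 binds, had 11489 counts per kb, 2.99-fold above *Dnmt1*. *Trim28*, a corepressor that protects methylation at imprinted regions, had 8709, and *Usp7*, a deubiquitinase partner of UHRF1 and DNMT1, had 2239. *Uhrf2*, the paralog of *Uhrf1*, had 1440 counts per kb, and *Uhrf1* stood 2.72-fold above it. At the low end, *Trdmt1*, a relative of the methyltransferases that modifies tRNA, had 59.1 counts per kb. *Dnmt3l*, the inactive cofactor of DNMT3A and DNMT3B in germ cells, had 2 reads in all 6 libraries. *Dppa3*, which keeps UHRF1 from chromatin in oocytes, had 5 reads. These were the 2 genes of the list whose mean did not exceed 3 normalized counts, a level too low to set apart from no expression.

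The 3 genes that supply the methyl donor lay above the median gene. *Mat2a*, the catalytic subunit that makes S-adenosylmethionine, had 2424 counts per kb, *Ahcy*, which clears its product, 1962, and *Mat2b*, the regulatory subunit, 862. Of 5 further genes listed as readers, 3 lay above the median. Whether each of them binds methylated DNA was not tested here. *Mbd3*, a subunit of the NuRD complex, had 3437 counts per kb and stood 1.6-fold above *Mbd2*. The zinc finger proteins *Zbtb4*, with 207, and *Zbtb38*, with 148 counts per kb, lay near the median gene. *Zbtb33*, with 82.4, and *Mbd4*, a glycosylase with a methyl-CpG binding domain, with 68.0, were lowest. *Tdg* stood 5.10-fold above *Mbd4*.

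Of 14 genes of removal, cofactor supply and repair, 13 lay above the median gene. The counts by role were not repeated without genes of a mean under 10. With that limit *Tdg* fell below the median gene, and so would every listed gene below *Tdg*, among them *Gadd45a*, *Smug1*, *Zbtb4* and *Zbtb38*. *Idh2*, which makes 2-oxoglutarate, had 6805 counts per kb. *Apex1*, the endonuclease of base excision repair, had 6142, and *Gadd45g*, a stress-induced factor linked to demethylation, 4750. *Gadd45a* had 233 counts per kb, *Smug1*, another uracil glycosylase, 224, and *Cxxc4*, a CpG binding neighbour of *Tet2*, 1.22. *Cxxc4* had 42 reads in all, with 4 to 13 in a library.

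**Figure D5:**
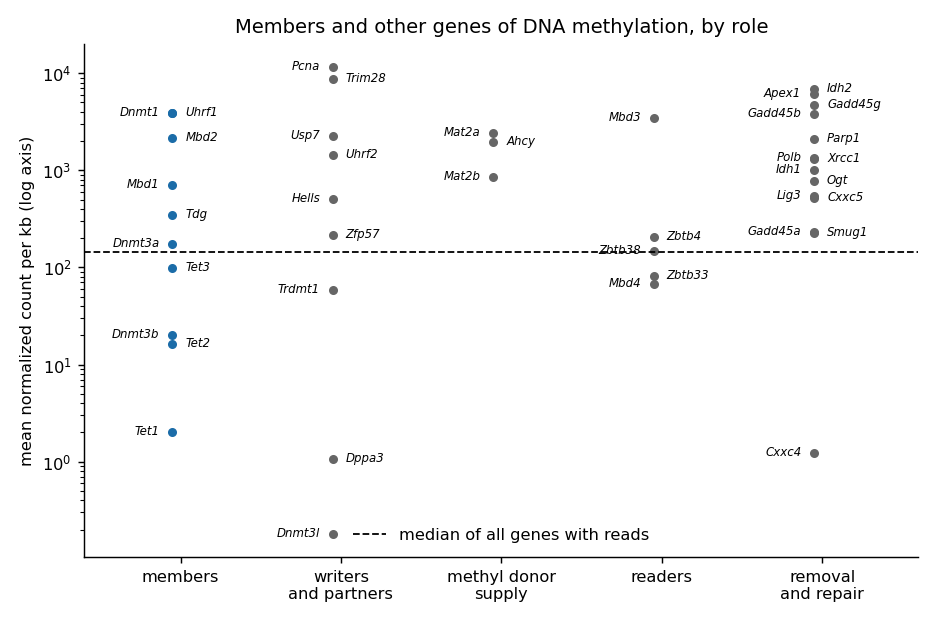
Mean normalized count per kb, on a log axis, of the 10 genes (blue) and of other genes of DNA methylation by role (grey), with the median of all genes with reads as a dashed line. Most genes of removal and repair lie above *Tdg*, and *Dnmt3l*, *Dppa3*, *Cxxc4* and *Tet1* lie lowest.

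The cell type label was checked with marker genes. Of 8 fibroblast markers, 7 lay above the median gene. The exception, *Pdgfra*, had a mean of 628 normalized counts and a level of 91.9 counts per kb. In each of the macrophage, endothelial, epithelial and neuronal lists, 1 of 4 markers lay above the median gene. These were *Cd68*, *Kdr*, *Krt18* and *Tubb3*. Of 6 pluripotency and germ cell markers none lay above the median. In this list *Zfp42* was listed at 0, *Pou5f1* had 14 and *Nanog* 69 reads in all, and *Ddx4* had a mean of 99.5 normalized counts. Summed means were 115 normalized counts for these 6 markers, 301 for 4 macrophage, 3000 for 4 endothelial, 1204 for 4 epithelial and 742 for 4 neuronal markers, against 483403 for the fibroblast markers. Single genes made up most of these sums, such as *Kdr* with 2958, *Krt18* with 1106 and *Tubb3* with 737 normalized counts. This also holds for the fibroblast sum, of which *Vim* alone had 330695 and *Fn1* 86443 normalized counts. The libraries stood apart in *Cdh1*, an epithelial cadherin, with 9, 4, 152, 6, 105 and 113 reads in the order used for *Tet1*. These read numbers hold under the condition given for *Dnmt3b*. Of the 6 libraries, 3 thus had at most 9 reads and 3 at least 105, and their genotype is not known. *Krt8* and *Epcam*, of the same epithelial list, did not show this split. In the same order, *Krt8* had 10, 26, 30, 33, 38 and 21 reads, and *Epcam* had 1, 7, 4, 0, 17 and 1. The mean of *Krt18* was above the limit of the search. The part of other cells in the levels of the 10 genes was not tested. *Anp32e*, the targeted gene, had a pooled mean of 2190 normalized counts, which cannot check the genotype labels.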

How the data were processed

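RNA-Seq libraries, 3 of WT and 3 of *Anp32e* null MEFs, were made with a stranded total RNA kit. Per the study's methods, the authors used STAR and mm10 for alignment, featureCounts of Subread for counting and DESeq2 for normalization, and the rows of the table are RefSeq transcripts. The deposited signal column used here averages, over 6 libraries, each count after division by its size factor. Counting and normalization are stated as run with default settings, which in featureCounts ignore strand and leave out reads that overlap several features. Shared reads appear to be counted for each transcript, so counting seems to have departed from the default in that setting. Whether it ignored strand is therefore not known. Genes of X and Y, which the authors excluded from their comparison, are still in the table and were kept. How reads shared by transcripts were treated is not stated otherwise. The table's 5 other columns hold the authors' own comparison of the genotypes (log2 fold change, standard error, statistic, p-value, adjusted p-value) and were not used, so no groups were compared and no test was made. Depth per library is unknown.

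Of 42361 transcripts, 42203 were assigned to genes with RefSeq on GRCm38.p6, and 35307 matched a GENCODE M21 model of the same build, which gave spliced and coding lengths. The transcript of highest mean stood for its gene, and for levels per kb the highest one that had a model. Ties were broken by identifier. Percentiles are over 18732 genes with reads and a model. Reads per library were searched for means below 90 normalized counts as 6 whole numbers that give the listed mean to its last printed digit. The steps were refined over 400 transcripts, and for means of 30 or more no library was allowed over 50% of the sum. The search was tested on simulated reads with 1 mean for all libraries, without draws over that share at the higher means. How often the simulated reads came back as the only answer is not given here. That test does not cover a split as uneven as that of *Cdh1*. An alternative was taken as moved where it changed a value over 1.5 times.

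The genes and lists were chosen with earlier results of these data known. From the lists, all 10 enzymes and binding proteins, the 3 highest and 3 lowest genes per role and those at or under 3 counts are named. The other listed genes enter the counts alone, except 1 reader that was left out of its list and is not reported here. Python 3.11.15, numpy 2.4.6, pandas 2.3.3, scipy 1.17.1 and matplotlib 3.10.9 were used.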

Additional observations from a re-analysis of the deposited data

How the results depend on the processing

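The count of genes above the median gene was 6 with autosomal genes alone, with the densest or the longest transcript and with coding length, 7 without division by length, and 4 of 10 among genes with a mean of at least 10, where *Dnmt3a* and *Tdg* fell below the median. The median level of the 10 genes, 261 counts per kb, was 316 with the densest and 253 with the longest transcript, and moved to 762 with coding length, which was added after seeing the data and leaves untranslated bases out of the length but not out of the reads. Coding length moved 7 of the 10 single levels by over 1.5 times, and the 2 other choices moved none. Densities of bases held by 1 of 2 transcripts were planned and not computed, since the models are not those counted on. In 158 of 3433 pairs the transcript nested in the other had the higher mean. In 1558 of 2453 pairs whose models cover the same bases, the means differed. Levels per kb, and the starts and exons given for transcripts, rest on these models. Tests of genotype, other normalizations and leaving out a library were not run, since the column used holds no labelled libraries. No paired analysis was possible because the result comes from 1 pooled mean per transcript.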

Other observations

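In 6 libraries without a group, *Tet1* had its highest normalized counts, 43.7 and 37.1, in those with the largest size factors, 1.05 and 1.13, and its lowest, 17.6 and 19.2, in those with size factors of 0.909 and 0.987. The other two had 26.3 and 28.9. Any tie to depth or genotype was not tested. *Cdh1* formed separate clusters, with 7.96, 3.8 and 6.08 normalized counts in the libraries with size factors of 1.13, 1.05 and 0.987, and 148, 112 and 124 in those with 1.03, 0.936 and 0.909. The epithelial markers *Krt8* and *Epcam* did not form these clusters. *Tet2* has a mean of 147 normalized counts, above the limit of the search, so its reads per library are not given.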
